A study of Mus musculus with 15 samples.

Results

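Long intergenic noncoding RNAs (lincRNAs) are RNA genes that carry no annotated protein and lie, by their class, between coding genes. The lincRNAs of whole blood were taken as the genes of that biotype in the deposited table with at least 10 counts in at least 7 of 15 libraries, leaving out Snhg14. They were thus selected on their counts in these same libraries, so abundance and detection are described and not tested. The rule found 336 genes, of 5854 lincRNA genes in the table, 4278 lincRNA genes with any count, and 55536 genes of all kinds. The libraries came from blood of male wild-type C57Bl/6 mice aged 10 months. In 8 of them (TBT) the mother had taken tributyltin, an organotin that activates RXR and PPAR gamma, in the drinking water until weaning, at 3.07 µM, or 0.5 mg per kg per day. The other 7 (vehicle) came from control animals, and the labels do not name the vehicle. Vehicle 3 is the one animal labelled with a liver tumor, and the labels give no litters, so animals of the same mother cannot be recognised.

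LincRNAs are transcribed by RNA polymerase II and are often spliced, but many remain in the nucleus, where they organise nuclear bodies, chromatin or RNA processing. Others serve as precursors: snoRNAs are cut from the introns of some, and microRNAs from the introns or exons of others. In blood, whose RNA is dominated by haemoglobin messages from red cells, lincRNAs are contributed by reticulocytes, platelets and the white cells together. In a bulk sample, fewer cells of a type and less RNA per cell cannot be told apart.

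The genes differed in what surrounds their starts, and the promoters of 4 are shown as examples of CpG-rich and CpG-poor starts. RefSeq promoter windows, 250 bases before to 50 bases after a start on GRCm38.p6, were found for 146 of the 336 genes. The windows below belong to Malat1 and 1810058I24Rik, which were among the 3 most abundant of the genes, to Gm6634, which varied widely between animals, and to 5031425E22Rik, which hardly varied. They are shown 5′ to 3′ on the gene's own strand, and capitals mark CpG dinucleotides.
Malat1, chr19:5802623-5802922, minus strand: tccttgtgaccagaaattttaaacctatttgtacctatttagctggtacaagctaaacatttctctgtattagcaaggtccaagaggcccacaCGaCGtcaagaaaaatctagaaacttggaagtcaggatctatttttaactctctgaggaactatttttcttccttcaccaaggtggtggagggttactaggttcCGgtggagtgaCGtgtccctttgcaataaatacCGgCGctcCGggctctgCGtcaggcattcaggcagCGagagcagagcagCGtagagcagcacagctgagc
1810058I24Rik, chr6:35252460-35252759, plus strand: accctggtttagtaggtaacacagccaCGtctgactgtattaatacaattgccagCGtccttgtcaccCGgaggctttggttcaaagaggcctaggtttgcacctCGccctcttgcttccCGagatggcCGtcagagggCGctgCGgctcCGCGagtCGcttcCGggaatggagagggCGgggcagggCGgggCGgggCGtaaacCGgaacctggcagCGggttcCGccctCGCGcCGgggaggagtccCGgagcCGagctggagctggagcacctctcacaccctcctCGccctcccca
Gm6634, chr3:70807242-70807541, minus strand: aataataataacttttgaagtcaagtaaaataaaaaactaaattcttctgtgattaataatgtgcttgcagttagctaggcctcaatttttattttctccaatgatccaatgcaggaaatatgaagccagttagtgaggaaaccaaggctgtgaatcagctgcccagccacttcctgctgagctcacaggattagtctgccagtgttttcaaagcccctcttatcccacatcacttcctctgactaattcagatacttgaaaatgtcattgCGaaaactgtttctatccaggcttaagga
5031425E22Rik, chr5:23433287-23433586, minus strand: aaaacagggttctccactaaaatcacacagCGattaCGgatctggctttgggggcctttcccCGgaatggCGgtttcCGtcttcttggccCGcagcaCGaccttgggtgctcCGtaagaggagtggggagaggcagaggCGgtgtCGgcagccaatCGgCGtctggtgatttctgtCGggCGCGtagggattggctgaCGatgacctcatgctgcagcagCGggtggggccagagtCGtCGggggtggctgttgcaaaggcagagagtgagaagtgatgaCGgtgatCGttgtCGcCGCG

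The window of 5031425E22Rik held 24 CpG dinucleotides and the printed window of 1810058I24Rik 25, with observed to expected CpG ratios of 0.932 and 0.789. 1810058I24Rik has a second RefSeq start, at chr6:35256741-35257040, whose window held 5 CpG at a ratio of 0.318. The Malat1 window held 10, at a ratio of 0.604. Gm6634 stood at the other end, with 1 CpG and a ratio of 0.0919. The listed windows of all lincRNAs ran from a ratio of 0 to 1.247. Of the 146 genes, 20 have several windows, 1 of them 13, so shares were averaged with each gene counted once. On that base 34.2% had a ratio above 0.6, against 35.9% over the 27025 genes of the RefSeq table. Counted by window the gap was wider, 28.7% of 188 windows against 35.8% of 32851. With each gene counted once, the GC box letters GGGCGG stood at 28.4% in lincRNAs against 35.6% over all genes, and TATAAA at 9.25% against 14.2%. The E-box CACGTG stood at 12.3% against 7.13%, and GGAAGT, a site of ETS family factors, at 32.9% against 24.1%. CCAAT (36.7% against 37.8%), AGATAA, known from erythroid promoters (11.7% against 11.3%), the interferon-stimulated response element core (3.77% against 3.501%) and TGACGTCA (2.05% against 1.82%) differed less. Each motif was searched on both strands, and a window held a motif or not, however many matches there were. These shares describe letters in a window and were not tested.

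MicroRNAs of the RefSeq table were enclosed by 11 of the genes, which held 21 microRNA genes with 38 mature forms and 33 different seeds. Mir17hg, the transcript of the miR-17-92 cluster, and 6720427I07Rik, which spans a let-7 cluster, held several forms with a shared seed, and Mir142hg held the blood cell microRNA miR-142. The mature forms are printed to show those families, with the seed, bases 2 to 8, in capitals.
miR-17-5p: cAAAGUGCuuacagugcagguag
miR-20a-5p: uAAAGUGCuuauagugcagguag
miR-18a-5p: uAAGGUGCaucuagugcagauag
miR-19a-3p: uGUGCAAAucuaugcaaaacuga
miR-19b-3p: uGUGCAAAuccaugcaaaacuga
miR-92a-3p: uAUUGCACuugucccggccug
let-7d-5p: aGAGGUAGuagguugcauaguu
let-7f-5p: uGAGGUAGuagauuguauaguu
let-7a-5p: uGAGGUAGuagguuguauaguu
miR-142a-5p: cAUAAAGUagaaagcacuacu
miR-142a-3p: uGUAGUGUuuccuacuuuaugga

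The pairs miR-17 and miR-20a, and miR-19a and miR-19b, shared the seeds AAAGUGC and GUGCAAA, and the let-7 forms shared GAGGUAG. The libraries measured the long host transcripts and not the mature microRNAs. The microRNA hosts are described with the other roles below.

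Each library held 6.03 M to 11.99 M gene counts, of which 28.7% to 50.8% came from haemoglobin genes. TBT 2 and TBT 8 stood apart, with TMM scaling factors of 0.404 and 0.528 against 0.736 to 1.58 in the other libraries. In vehicle 6 an rRNA gene on chromosome 17, CT010467.1, took 1.97% of counts against at most 0.277% elsewhere. Coding genes took 80.5% of counts in vehicle 6, against 95.1% to 98.5% in the other libraries. The defining markers of red cells, platelets, neutrophils, monocytes, B, T and NK cells were all above 0 in the table. Liver transcripts (Alb, Apoa1 and Ttr summed) ran from 0.760 to 774 CPM (counts scaled to a common library size, here with TMM), with the highest value in vehicle 4. Fold changes that turned or moved by over 1.5 times when TBT 2, TBT 8 and vehicle 6 were left out together are also given without them.

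LincRNAs took a small and uneven share of each library. The mean share over the 8 TBT animals was 1.74%, with an SD of 0.683. Over the 7 vehicle animals it was 1.76%, with an SD of 0.372. TBT 2 at 0.625% and TBT 8 at 0.744% lay below every other animal, and the other 6 TBT animals lay between 1.70% and 2.41%. Vehicle animals ran from 1.30% in vehicle 4 to 2.45% in vehicle 3. Group means thus differed by far less than the spread within either group. That closeness hung on TBT 2 and TBT 8. The other 6 TBT animals had a mean of 2.10% (SD 0.233), and the medians of the full groups were 2.06% in TBT and 1.71% in vehicle. The low animals were also those with the most haemoglobin: it took 50.8% of counts in TBT 2 and 44.5% in TBT 8, and 44.1% in vehicle 4. The part of haemoglobin, or of red cells and platelets, in the lincRNA share was not tested. With haemoglobin genes left out of the total, which keeps other red cell and platelet messages, TBT 2 and TBT 8 were again the lowest. On that base the same lincRNAs took 1.27% in TBT 2 and 1.34% in TBT 8, against 2.32% to 3.44% in the vehicle animals.

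**Figure D1:**
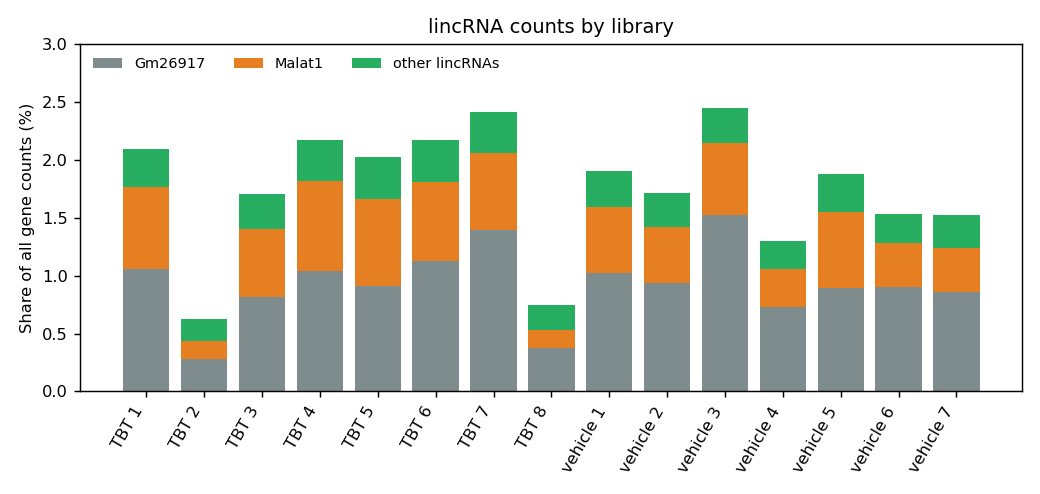
Share of each library's counts (percent, y axis) taken by Gm26917, Malat1 and all other lincRNAs, stacked, for each of the 15 libraries. TBT 2 (0.625%) and TBT 8 (0.744%) are the shortest bars, and Gm26917 and Malat1 make up most of every bar.

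**Figure D2:**
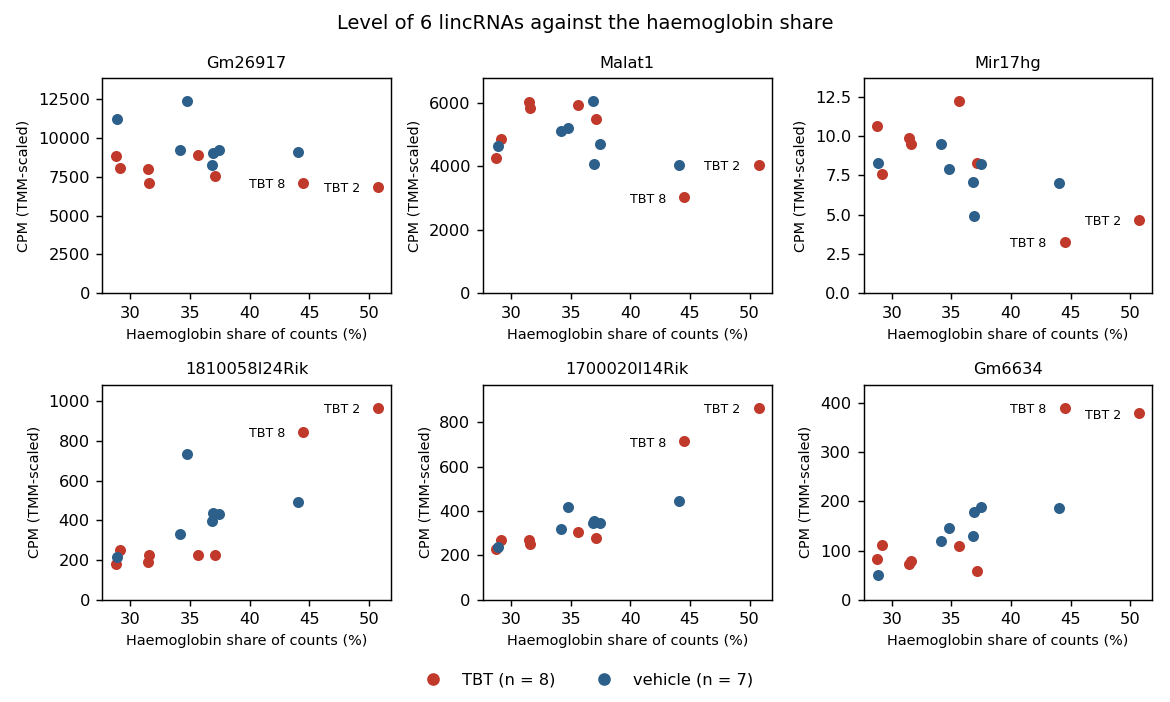
CPM on TMM-scaled library sizes (y axis) against percent of counts from haemoglobin genes (x axis), 1 point per library, coloured by group. The panels show Gm26917, Malat1, Mir17hg, 1810058I24Rik, 1700020I14Rik and Gm6634. TBT 2 lies farthest right (50.8% haemoglobin). In TBT 2 and TBT 8, Gm6634 is highest (380 and 391 CPM) and Malat1 lowest (4041 and 3016 CPM).

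A pair of genes made up 83.1% of all lincRNA counts: Gm26917 gave 52.7% and Malat1 30.4%. Gm26917 took 0.874% ± 0.379 of counts in TBT and 0.981% ± 0.254 in vehicle, and Malat1 took 0.563% ± 0.255 and 0.489% ± 0.131 (SD, n = 8 and 7). All other lincRNAs together took 0.306% ± 0.0698 in TBT and 0.286% ± 0.0310 in vehicle. Their share was 0.186% in TBT 2 and 0.212% in TBT 8, the lowest of the 15, so the shortfall in those animals was not limited to the leading pair.

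Below these, the class was thinly expressed. Mean levels reached 1 CPM in 299 of the 336 genes, 10 CPM in 40 and 100 CPM in 7, and the median gene had 2.31 CPM. Detection moved with the same libraries: 156 genes reached 10 counts in TBT 2, 180 in TBT 8 and 207 in vehicle 7, the shallowest library, against 324 in TBT 4. All 15 libraries reached 10 counts for 116 genes, all 8 TBT libraries for 124 and all 7 vehicle libraries for 159, and none of the 336 entered through only one group. At the edge of the rule, 30 genes had 10 counts in exactly 7 libraries. Gm26819, A430106G13Rik and Gm28935 lay just inside with a seventh highest count of 10 and 98, 110 and 121 counts in all. A530013C23Rik, 4933406I18Rik and 2810429I04Rik lay just outside with a seventh highest count of 9, although their totals of 165, 162 and 153 were higher.

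Because levels of different genes can be compared only per length, CPM was also divided by the kilobases of merged exons. Gm26917, a single-exon gene of 3329 bp at chr17:39843013-39846341 on the plus strand, led on both scales with 8707 CPM and 2616 CPM per kb. It lies beside CT010467.1, an rRNA gene at chr17:39846353-39848827, and is often treated in mouse data as ribosomal RNA-like. Its own exons overlapped no other gene, while 2 neighbouring lincRNAs, Gm42418 and AY036118, were listed at 0 in every library. Of their exon bases, 9 and 0 were free of the rRNA gene or each other. Over the whole table, 0 of 460 genes whose every exon base is shared with the opposite strand had a count, against 31858 of 43640 genes with no shared base. Of 712 genes whose every exon base is shared on the same strand, 19 had counts, with a largest total of 1915. The counting thus took no account of strand where exons of both strands coincide, and a 0 at such a gene says nothing about its RNA.

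Malat1, the abundant RNA of nuclear speckles, followed with 4880 CPM and 699 CPM per kb, and Neat1, the scaffold of paraspeckles, had 330.1 CPM but, over its 20771 bp, only 15.9 CPM per kb. 1810058I24Rik had 410 CPM (147 CPM per kb). It is carried as a lincRNA in the deposited table but as protein-coding in RefSeq, as were 8 other genes of the 336 (Tmem250-ps, Gm32856, Gm46430, Gm5165, Gm6712, Gm26637, Gm20939 and Gm9949). 1700020I14Rik, the mouse Cyrano transcript known to trigger the decay of miR-7, had 376 CPM (45.3 per kb). Gm6634 had 152 CPM (84.4 per kb), AI504432 had 138 CPM (24.8 per kb) and F930017D23Rik 61.3 CPM (12.3 per kb). 2900097C17Rik, the mouse NORAD transcript that binds Pumilio proteins, had 50.04 CPM (10.2 per kb), and C530050E15Rik had 45.3 CPM (11.8 per kb). Per length, short genes moved up: Gm11274 (27.3 CPM per kb), Mir142hg (24.6), Gm30411 (18.98) and Gm2682 (17.7) entered the leading 10.

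The name intergenic fitted part of the class. By GENCODE M21, 95 of the 336 genes overlapped the span of a coding gene, 82 of them on the opposite strand and 13 on the same strand. The remaining 241 lay a median of 12427 bp from the nearest coding gene. Among them, 80 lay upstream of a coding gene on the opposite strand, 24 of these within 1 kb, the layout of a shared two-way promoter. 5031425E22Rik is of that kind, 172 bp from the start of Kmt2e, a chromatin regulator of blood stem cells. Another 57 lay downstream on the same strand, 26 of them within 5 kb, where reads that run past the end of the coding gene can fall in the lincRNA. Merged exons had a median length of 2314.5 bp, from 141 bp in Gm44174 to 20771 bp in Neat1. There was 1 exon in 53 genes and 2 in 119. Exon bases were shared with another gene in 110, and shared bases made up 50% or more in 13.

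LincRNAs varied more between animals than coding genes did. The biological coefficient of variation (BCV) estimates the spread between animals of a group that is left after counting noise. It is edgeR's value per gene, drawn toward the trend of genes of like abundance, which can narrow gaps within an abundance range. It had a median of 0.313 in the 323 lincRNAs that passed the filter for testing (quartiles 0.240 and 0.409). It was 0.217 in coding genes and 0.231 in all 13364 genes tested. Much of this gap went with low abundance. Below 1 CPM the medians were 0.381 in 26 lincRNAs and 0.384 in coding genes. From 1 to 3 CPM they were 0.340 and 0.314, from 3 to 10 CPM 0.268 and 0.222, from 10 to 30 CPM 0.202 and 0.183, and from 30 CPM upwards 0.230 and 0.201. Within like abundance, then, the lincRNA median was higher in 4 of 5 ranges. These medians were not tested, because counts chose the genes.

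**Figure D3:**
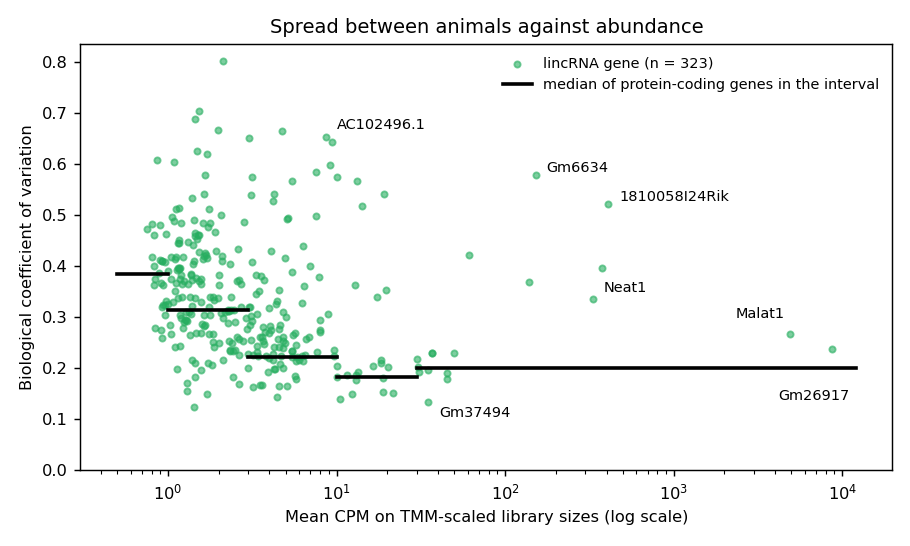
BCV (y axis) against mean CPM (x axis, log scale) for the 323 tested lincRNAs, with the median BCV of coding genes in each abundance range as a black line. Gm6634 (0.578) and 1810058I24Rik (0.521) lie far above the line at their abundance, and 5031425E22Rik (0.151) lies below it.

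Among lincRNAs of at least 5 CPM, the widest spread was that of AC102496.1 (BCV 0.653), Gm31452 (0.642), Gm1968 (0.599), Gm13431 (0.584) and Gm6634 (0.578). All 5 were high in the same animals. Gm6634 had 380 CPM in TBT 2 and 391 CPM in TBT 8, against 50.9 to 189 CPM in the other 13 animals. Gm31452 had 33.0 and 17.6 CPM against 2.34 to 14.9, Gm1968 19.9 and 23.1 CPM against 3.34 to 16.3, and Gm13431 23.7 and 18.5 CPM against 3.05 to 9.28. The least variable were Gm37494 (0.133), Dubr (0.140), 1300002E11Rik (0.150), 5031425E22Rik (0.151) and Ftx (0.152). Ftx, a long RNA of the X-inactivation centre, had 14.9 to 22.1 CPM in TBT and 16.5 to 21.4 CPM in vehicle, and 5031425E22Rik 16.2 to 25.02 and 18.1 to 24.3 CPM.

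The division of lincRNAs by TBT 2 and TBT 8 ran through the abundant genes. On TMM-scaled CPM, 44 of the 323 tested lincRNAs (13.6%) were higher in both animals than in each of the other 13, against 17.4% of all genes tested. Another 33 (10.2%) were lower in both than in each of the others, against 12.1% of all genes. The lincRNA shares were thus near or under the background. The higher genes had a median ratio of 2.82 to the other animals and the lower ones of 0.459. Among the 10 most abundant lincRNAs, 6 were of the higher kind and 2, Gm26917 and Malat1, of the lower.

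Per animal, 1810058I24Rik had 969 and 847 CPM in TBT 2 and TBT 8. The other 6 TBT animals had 217 ± 26.3 CPM (SD, n = 6), and vehicle animals 215 to 736 CPM. 1700020I14Rik had 866 and 714 CPM there, against 267 ± 24.7 in the other TBT animals and 236 to 443 in vehicle. Both genes were thus highest in the same 2 TBT animals and low in the other 6, below most vehicle animals. AI504432, which lies 1434 bp downstream of the potassium channel gene Kcna3, had 254 and 270 CPM against 73.8 to 153. F930017D23Rik, downstream of Cd24a, had 163 and 105 CPM against 24.9 to 68.8, and 2900097C17Rik 78.3 and 76.8 CPM against 34.5 to 58.6. Redrum, an erythroid lincRNA, had 11.97 and 5.401 CPM against 1.01 to 3.65. Malat1 had 4041 and 3016 CPM against 4045 to 6033, and Mir17hg 4.67 and 3.28 CPM against 4.91 to 12.2.

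The same animals stood out in red cell and platelet markers. The 7 erythroid markers summed to 1322440 CPM in TBT 2 and 892101 in TBT 8, against 190882 to 573746 in the others, and the 5 platelet markers to 11152 and 11204 against 1836 to 5402. TMM-scaled sums can exceed the nominal total of CPM there, because the small factors raise every gene. B cell markers summed to 292 and 349 CPM against 409 to 791. The part of red cells, platelets or RNA quality in these levels was not tested. The split also depends on the scale: on CPM of all counts, 2 lincRNAs were higher in both animals than in all others (0.868% of all genes were) and 110 were lower (55.8% of all genes).

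Maternal TBT was compared with vehicle in all genes with edgeR's quasi-likelihood test, which asks whether the exposure left a difference in the blood of grown offspring. None of the 323 lincRNAs passed an adjusted p of 0.05 over 13364 genes, and none of all genes did (percent called 0.0). The smallest adjusted p was 0.357 among lincRNAs and 0.207 among all genes. At an unadjusted p under 0.05 there were 13 lincRNAs (4.02%), against 6.33% of all genes. Of these, 9 were higher in TBT (2.79%, against 4.57% of all genes) and 4 lower (1.24%, against 1.76%). No lincRNA had groups that did not overlap, against 0.112% of all genes (0.0973% higher and 0.015% lower in TBT). DESeq2 called 1 lincRNA, Gm48671 (adjusted p = 0.0364), of 19 genes, and limma-voom with sample weights called 0 of the lincRNAs and 19 genes.

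LincRNA log2 fold changes ran from -0.99 to 1.09. They were positive in 215 of 323 (66.6%), against 59.4% of all genes, with a median of 0.12 against 0.05. In 95% intervals, the median half-width was 0.63 on the log2 scale for lincRNAs and 0.41 for all genes. On simulated counts with the same libraries, the test called 62 of 97 genes changed by 1 on the log2 scale and 6 of 97 changed by 0.5. The changed genes were drawn from all tested genes, whose median BCV of 0.231 is below the 0.313 of lincRNAs. Recovery among lincRNAs alone was not measured. Given the interval widths, differences of the size seen in most lincRNAs were largely not detectable with these animals.

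**Figure D4:**
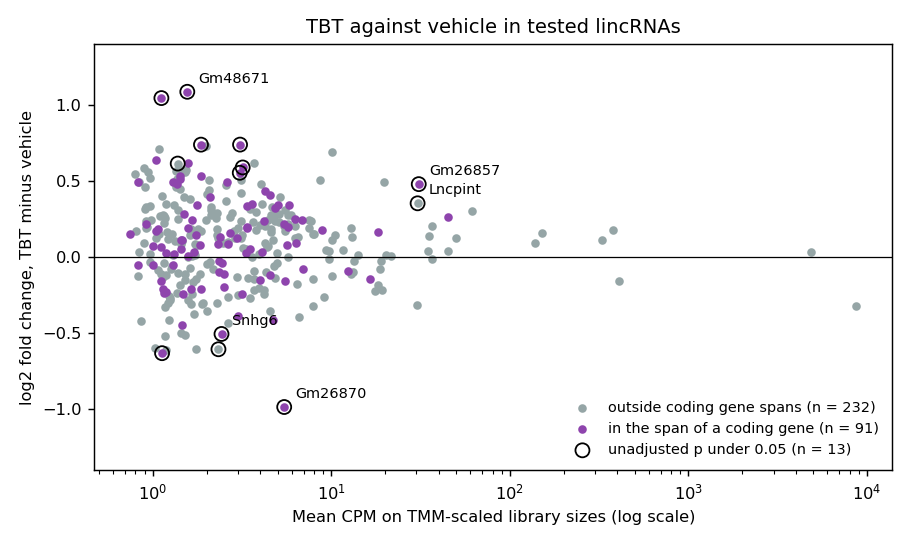
Log2 fold change of each tested lincRNA, TBT minus vehicle (y axis), against mean CPM (x axis, log scale). Purple points lie in the span of a coding gene and circles mark an unadjusted p under 0.05. Points spread from -0.99 to 1.09 and none passed an adjusted p of 0.05.

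The lincRNA with the smallest p was Gm48671, a gene of 2 exons at chr10:42886705-42888797 on the minus strand, within the span of Scml4 on the other strand. It had 2.42, 1.75, 2.02, 2.08, 1.48, 1.74, 2.72 and 2.51 CPM in TBT 1 to TBT 8, and 1.69, 0.929, 1.04, 0.692, 0.976, 0.831 and 0.526 CPM in vehicle 1 to vehicle 7. These levels rest on few reads: 3 to 18 counts in vehicle libraries, and 6 in TBT 2 to 43 in TBT 7. All 8 TBT animals lay above the vehicle median, and the groups overlapped only through vehicle 1 and TBT 5. The log2 fold change was 1.09 ± 0.245 (SE; edgeR adjusted p = 0.357). Scml4 itself, a Polycomb-like gene, differed by -0.01 ± 0.151. Exons of Gm48671 shared 8.80% of their bases with another gene.

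Next came Gm26857, in the span of Lyn, a Src family kinase of B and myeloid cells. It had 28.4, 29.8, 43.8, 37.7, 47.5, 41.8, 29.1 and 26.2 CPM in TBT 1 to TBT 8, and 28.6, 27.3, 28.4, 23.7, 22.7, 25.4 and 23.0 CPM in vehicle 1 to vehicle 7. TBT 2 to TBT 7 were above every vehicle animal, and TBT 1 and TBT 8 lay within the vehicle range. The log2 fold change was 0.48 ± 0.131 (edgeR adjusted p = 0.631), and that of Lyn was 0.08 ± 0.232. Gm26563, opposite to Suz12, a subunit of PRC2, had 3.09 to 4.45 CPM in TBT (median 3.796) and 1.63 to 3.39 in vehicle (median 2.40), a difference of 0.59 ± 0.174 (adjusted p = 0.676). AC132235.2, opposite to Rftn1, had 1.57 to 4.09 and 0.887 to 2.26 CPM (0.74 ± 0.266). Gm48855, opposite to Map2k1, which encodes the kinase MEK1, had 2.28 to 5.46 and 1.06 to 3.46 CPM (0.74 ± 0.273). In each of these 5 genes all 8 TBT animals were above the vehicle median. They were picked for their small p, which favours such a pattern, so it is no separate evidence.

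These 5 lincRNAs lie within spans of coding genes on the opposite strand. The counts kept no strand, so reads from introns of the coding gene cannot be told apart from the lincRNA where they overlap. The coding genes' own exon counts differed on the log2 scale by -0.01 ± 0.151 for Scml4, 0.08 ± 0.232 for Lyn and 0.10 ± 0.121 for Suz12. For Rftn1 the difference was -0.04 ± 0.115 and for Map2k1 -0.06 ± 0.107. Exon counts do not measure reads from introns, so the part of such reads was not tested. Of the 13 lincRNAs at p under 0.05, 10 lay in an opposite-strand span, as did 78 of the 323 tested. That grouping was noticed after the values were seen and was not tested. Gm26823, in Wdr33, and Gm13572, in Baz2b, were also among them, with 3.58 against 2.49 and 1.51 against 0.668 mean CPM in TBT and vehicle.

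Among the genes lower in TBT, Gm11690 had 0.854 to 2.66 CPM in TBT (median 1.97) and 2.22 to 3.92 in vehicle (median 2.79), a log2 fold change of -0.61 ± 0.229 (edgeR adjusted p = 0.725). No TBT animal reached the vehicle median. Gm26884, opposite to Gtpbp1, had 0.386 to 1.46 and 1.04 to 2.45 CPM (-0.63 ± 0.281), from only 2 to 15 counts per library. Gtpbp1, which takes part in messenger RNA decay, differed by -0.20 ± 0.0745. Gm26870 had 0.870 to 8.49 and 2.67 to 13.3 CPM (-0.99 ± 0.435). It lies near the start of the chromosome 9 assembly and shared 54.6% of its exon bases, and Gm10722, which overlaps it, differed by -2.41 (mean 0.409 against 2.62 CPM, adjusted p = 0.207). Reads of such repeated sequence may have been split or left out, so both values are uncertain. F730311O21Rik had 16.6 to 37.2 and 26.7 to 40.9 CPM (-0.31 ± 0.153), a difference of -0.16 without TBT 2, TBT 8 and vehicle 6.

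**Figure D5:**
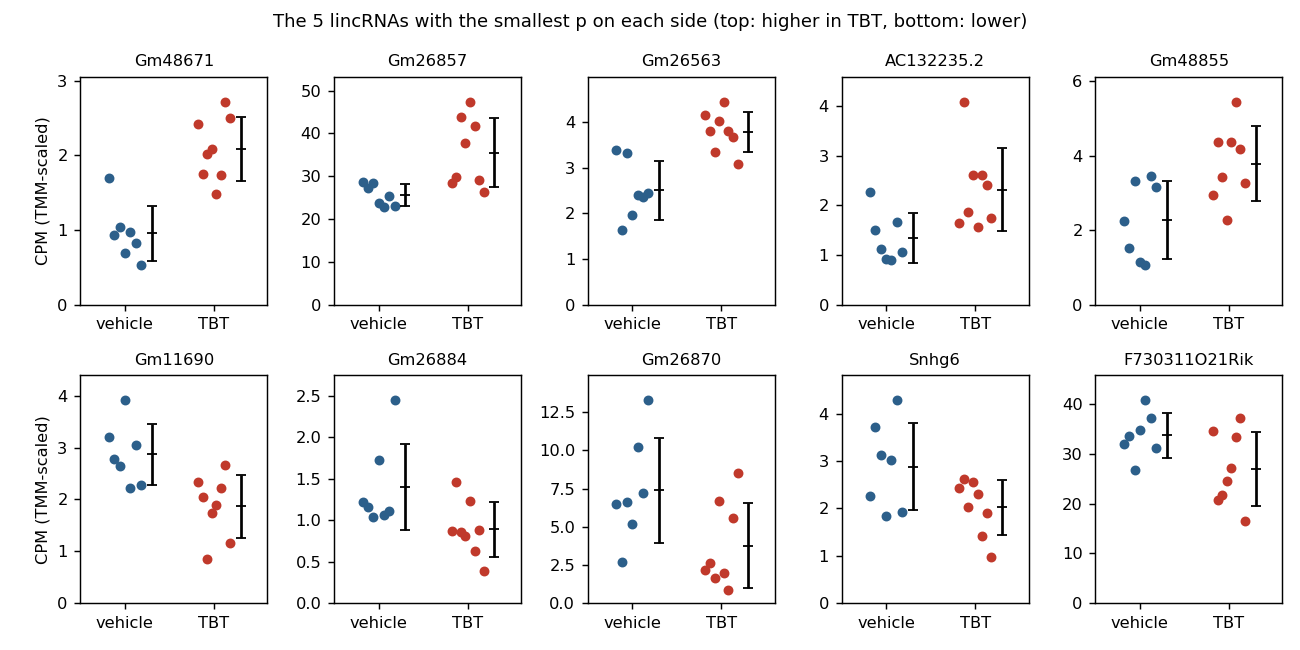
CPM on TMM-scaled library sizes (y axis) in each animal for the 5 lincRNAs with the smallest p in each direction, vehicle and TBT side by side, with group mean and SD as bars. The groups overlap in each gene, as in Gm48671 (1.48 to 2.72 in TBT, 0.526 to 1.69 in vehicle).

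By role, the RNAs listed for nuclear architecture come first. That list also holds 2900097C17Rik, the Pumilio-binding RNA named above, and being listed does not show that an RNA stays in the nucleus. Of 11 listed, 10 had a row in the table and 6 were lincRNAs of the rule, and 0 passed the test. Malat1 differed by 0.03 ± 0.301 (4929 ± 1086 CPM in TBT, 4823 ± 698 in vehicle, edgeR adjusted p = 0.997) and Neat1 by 0.11 ± 0.251 (342 ± 142 and 317 ± 63.8 CPM), with signs that turned when single animals were left out. Without TBT 2, TBT 8 and vehicle 6 they differed by 0.17 and 0.33 (adjusted p = 0.669 and 0.499). 2900097C17Rik differed by 0.13 ± 0.159 and turned to -0.069 without those libraries. Dubr differed by 0.14 ± 0.109 and Pvt1, a neighbour of Myc that is often co-amplified with it, by 0.28 ± 0.218, and by 0.079 and 0.089 without those libraries. Lncpint, a p53-induced RNA, had 22.8 to 40.1 CPM in TBT (median 38.0) and 22.2 to 32.4 in vehicle (median 24.6). Its difference was 0.35 ± 0.141 (unadjusted p = 0.0224, adjusted p = 0.731), with 6 of 8 TBT animals above the vehicle median. Without those libraries it was 0.50 (edgeR adjusted p = 0.0666).

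The abundant ribosomal-like Gm26917 had 6859 to 8903 CPM in TBT and 8242 to 12323 CPM in vehicle, so that no TBT animal lay above the vehicle median of 9190 CPM. The difference was -0.32 ± 0.322 (edgeR adjusted p = 0.960), and -0.37 to -0.26 when 1 animal at a time was left out. The p depended on the method. DESeq2 gave -0.33 (unadjusted p = 0.000531, adjusted p = 0.134) and limma-voom -0.31 (adjusted p = 0.268). The other abundant genes gave fold changes that hung on TBT 2 and TBT 8. 1810058I24Rik differed by -0.16 ± 0.399, and by -0.83 without TBT 2, TBT 8 and vehicle 6 (adjusted p = 0.0570). 1700020I14Rik went from 0.18 ± 0.301 to -0.36, Gm6634 from 0.16 ± 0.443 to -0.75, AI504432 from 0.09 ± 0.271 to -0.35 and F930017D23Rik from 0.31 ± 0.318 to -0.26. Without the 3 libraries, 0 lincRNAs and 7 of all genes passed, and 22 lincRNAs were higher and 24 lower at an unadjusted p under 0.05. These were 14.1% of the lincRNAs tested, against 16.96% of all genes, so the rise in number was not particular to lincRNAs.

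Of 20 snoRNA host genes listed, 17 had a row and 3 met the rule. The rule asks for the lincRNA biotype as well as for counts. A listed gene can thus miss it through another biotype, and no absence from blood is read from these numbers. Snhg6 had 0.964 to 2.63 CPM in TBT and 1.85 to 4.30 in vehicle (-0.51 ± 0.234, edgeR adjusted p = 0.777), with no TBT animal above the vehicle median. It lies opposite to Mcmdc2, with 11.1% of its exon bases shared. Snhg20 differed by -0.35 ± 0.215 and Snhg12 by 0.09 ± 0.176, which turned to -0.039 without TBT 2, TBT 8 and vehicle 6. Of 16 microRNA hosts listed, 13 had a row and 4 met the rule, and 0 passed. Mirt1, which was on that list, encloses none of the microRNAs of the RefSeq table. Mir142hg had 2.51 to 7.51 CPM in TBT and 5.58 to 11.2 in vehicle (-0.40 ± 0.204, adjusted p = 0.824), with 2 of 8 TBT animals above the vehicle median. Its difference was -0.20 without the 3 libraries. Mir17hg, whose cluster acts on cell growth and B cell survival, had 3.28 to 12.2 and 4.91 to 9.50 CPM (0.15 ± 0.215). Without the 3 libraries, which include the 2 TBT animals lowest in it, it differed by 0.34 (unadjusted p = 0.0379, edgeR adjusted p = 0.256). Mirt1 differed by 0.04 ± 0.134 and Ftx by -0.03 ± 0.107, and both changed sign when single animals were left out. Without the 3 libraries they stood at 0.14 and 0.047. Outside the list, the let-7 host 6720427I07Rik had a mean of 13.4 CPM.

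None of 8 imprinted RNAs listed met the rule, although all 8 had a row. Biotype or counts can each be the reason, so this does not show that they are absent from blood. Of 15 immune and p53-linked RNAs, 13 had a row and 4 met it: AW112010, which is induced in activated immune cells, differed by 0.11 ± 0.154 (7.67 to 13.3 CPM in TBT and 5.96 to 12.3 in vehicle), and by 0.058 without the 3 libraries. Epb41l4aos had 1.65 ± 0.505 CPM in TBT and 1.07 ± 0.268 in vehicle (SD), a difference of 0.61 ± 0.252 (unadjusted p = 0.0255, edgeR adjusted p = 0.731), with 7 of 8 TBT animals above the vehicle median. Lncpint and Pvt1 are given above.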

How the data were processed

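Blood RNA of 15 mice, 1 library each, was sequenced with a stranded total RNA kit, per the labels' protocols. Trim Galore, HISAT2, featureCounts and the build mm10 are named in the submitters' processing notes, and neither their versions nor the annotation release or strand setting could be read there. The authors' table holds raw counts per gene as deposited. All 55536 gene identifiers matched GENCODE M21. The 336 lincRNAs, the role lists and the rule for named genes (highest CPM and CPM per kb, smallest p, highest and lowest dispersion, edge of the count rule, role list members) were chosen with earlier results of these data known. Groups were compared over all genes with edgeR 4.0.16 in R 4.3.3 (filterByExpr, TMM, robust quasi-likelihood fit), with Benjamini-Hochberg adjustment over 13364 genes at 0.05. A ± after a fold change is a standard error from the F statistic. The script was tested on simulated data. DESeq2 1.42.0, limma 3.58.1, other normalizations, filters and left-out libraries were alternatives. Animals of the same group differed beyond sampling noise (chi-square per gene at least 9.71). Nothing says that animals came from separate litters.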

Additional observations from a re-analysis of the deposited data

Results flagged for a closer look

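Each named lincRNA and library share was checked within each group for an animal whose gap to the nearest other was large for the group's range. Of 92 groups checked, 5 were picked out, and chance alone picks about 1 in 20. Vehicle 3 is labelled with a liver tumor. In it, Gm6634 was at 50.9 CPM against 120 to 189 CPM in the other vehicle animals, AI504432 at 73.8 CPM against 119 to 153, and Gm30411 at 7.15 CPM against 16.8 to 30.1. Gm26917 took 1.52% of that library's counts against 0.729% to 1.02% in the others. In TBT 8, Mir142hg was at 2.51 CPM against 4.94 to 7.51 in the other TBT animals. Over the tested lincRNAs, vehicle 3 was the highest of the 7 vehicle animals in 15 (4.64%, against 16.6% of all genes) and the lowest in 50 (15.5%, against 15.2%). Vehicle 3 also had the lowest haemoglobin share of the vehicle animals (28.9%). Its erythroid and platelet marker sums were the lowest of that group too (225819 and 1966 CPM). In TBT animals other than TBT 2 and TBT 8, Gm6634, AI504432 and Gm30411 had means of 85.3, 103 and 10.4 CPM. Vehicle 3 is 1 animal, so neither the tumor nor the red cell and platelet content was tested.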

How the results depend on the processing

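The call count stayed at 0 lincRNAs under every alternative except DESeq2, which called 1. Calls over all genes were 2 with no filter on low counts, 7 without TBT 2, TBT 8 and vehicle 6, and 19 with both DESeq2 and limma-voom. LincRNAs at an unadjusted p under 0.05 numbered 4 higher and 1 lower with a stricter filter (108 of 155 positive; 3.23% of lincRNAs, against 6.65% of all genes). They numbered 22 and 24 without the 3 libraries (14.1%, against 16.96%), and 37 and 24 with limma-voom (18.9%, against 20.3%). With the replicate number as a block, which also leaves out TBT 8 as it has no vehicle of its number, they numbered 16 and 8 (7.50%, against 8.26%). Without TBT 8 and with no block, 18 passed in both directions together (5.62%, against 8.40%). Deviations of same-numbered animals correlated at -0.23 to 0.51 (-0.09, 0.04, 0.51, -0.23, 0.15, -0.15 and -0.18 for numbers 1 to 7). These values were not set beside those of differently numbered animals, so whether the numbers pair the animals was not tested. Leaving out 1 animal at a time gave 6 to 14 higher, 1 to 6 lower and 184 to 220 positive; the fewest lower, 1 and 2, came without TBT 3 and vehicle 5. The lincRNA rule kept 116 genes with 10 counts in all 15 libraries and 151 with 30 counts in 7. The cause of these changes was not tested, beyond the fewer genes a stricter filter tests.

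Signs reversed for several abundant genes. With the block and without TBT 8, log2 fold changes were -0.16 for 1700020I14Rik, -0.38 for Gm6634, -0.19 for AI504432, -0.060 for F930017D23Rik and -0.013 for 2900097C17Rik. Leaving out TBT 8 alone already gave -0.16 for Gm6634 and -0.10 for AI504432. Without the 3 libraries they were -0.36, -0.75, -0.35, -0.26 and -0.069 in that order, with Snhg12 at -0.039 and Ftx at 0.047. With limma-voom they were -0.28, -0.62, -0.33, -0.19 and -0.052, with Snhg12 at -0.051 and Ftx at 0.020. Leaving out 1 animal at a time gave -0.033 to 0.094 for Malat1, -0.020 to 0.20 for Neat1, -0.081 to 0.010 for Ftx, -0.022 to 0.11 for Mirt1, -0.087 to 0.24 for 1700020I14Rik, -0.16 to 0.29 for Gm6634, -0.10 to 0.19 for AI504432, -0.014 to 0.41 for F930017D23Rik and -0.49 to 0.017 for 1810058I24Rik. No direction is read from these genes.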
